A study of Schizosaccharomyces pombe with 2 samples.

Results

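The genes described here encode the enzymes of ergosterol synthesis that use molecular oxygen in the fission yeast Schizosaccharomyces pombe. They were chosen by name, from their known reactions, with earlier results of these data known, and are 6 of the 5057 genes on the array, each with 1 probe: erg1, erg11, erg25, erg31, erg32 and erg5. RNA was compared between strain ESY173, which lacks mga2, a transcriptional activator of lipid genes (mga2Δ below), and its control KGY425 (WT below). Both strains were growing exponentially in the complete medium YES and spent 1.5 h without oxygen in an anaerobic chamber before harvest. The control is wild type by the sample labels, while the design text of the series gives both strains a deletion of sre1, the gene of the sterol-regulated transcription factor SREBP. The 3 sre1 spots of each array were all too dim to stand well above background, whichever strain, which does not by itself settle the genotype. Raw median signals of sre1 in WT were 19.2 (Cy3, array 1) and 69 (Cy5, array 2). Those of the deleted gene mga2 in mga2Δ were 24 (Cy3, array 2) and 70.8 (Cy5, array 1). No sample grown with oxygen was analysed here, so each value compares the strains without oxygen and none is a response to its loss.

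Ergosterol is the main sterol of fungal membranes, made from squalene through a ring closure, removal of methyl groups, desaturations and a side-chain methylation. Several of these steps insert or activate molecular oxygen, so the pathway stalls when oxygen is short. In fission yeast Sre1 is cleaved when sterol synthesis falls, and its released part activates many genes of the pathway. The oxygen-using steps are catalysed by enzymes of different kinds. Erg1 is squalene epoxidase, a flavoprotein. Erg11 and Erg5 are cytochrome P450 enzymes, the first removing a methyl group from the sterol ring and the second desaturating the side chain. Erg25 is a methylsterol oxidase with a non-haem iron centre, and Erg31 and Erg32 are a pair of sterol desaturases acting on the same ring bond, also with non-haem iron.

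The data came from 2 two-colour Agilent arrays, each holding RNA of one pair of biological replicates, with the dyes swapped between them. The mga2Δ RNA was labelled with Cy5 for array 1 and with Cy3 for array 2. Median gene-spot signals lay between 858 and 897.5 in Cy3 and between 1579 and 2322.5 in Cy5, against 18 to 62 at negative control spots, and no spot was saturated. The mga2 probe checked the labels. Its log2 signal was 12.60 and 12.56 in WT, against 5.32 and 6.43 in mga2Δ, where 0 of 3 and 1 of 3 spots were well above background, which gives a fall of at least 85.0-fold. For this bound the mga2Δ level was set, on each array, to the dimmest signal of any probe that stood well above background there (or to the mga2 probe's signal if that was brighter). All ratios are given as log2 of the mga2Δ level over the WT level, with the bulk of the genes at about 0. Each mean and SD is over 2 arrays, whose number limits the precision, and each 95% interval is from limma, which borrows spread from all genes because a single gene has only 1 residual degree of freedom. Signals are log2 values after dye normalization and can be compared between strains for a probe, not between probes.

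The 6 transcripts did not move together. One of the desaturase genes, erg32, was 2.02-fold higher in mga2Δ, while its partner erg31 and the methylsterol oxidase gene erg25 were at 0.774 and 0.795 of the WT level. The transcripts of the epoxidase and of both P450 enzymes did not pass the test. By limma with Benjamini-Hochberg adjustment over 4964 tested genes, 3 of the 6 were called at 0.05, 1 raised and 2 lowered. That is 50% of the members, where 29.3% of all tested genes were called. Raised genes made up 16.7% of the members and 18.4% of all tested genes, and lowered genes 33.3% and 10.9%. With 6 genes these shares rest on 1 to 3 genes each and were not tested. All 6 were well above background in every spot of both strains on both arrays, so the filter on dim probes removed none.

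The erg32 gene (SPBC27B12.03c) gave the largest difference of the 6. Its log2 signal was 9.90 and 9.85 in WT and 10.71 and 11.07 in mga2Δ, arrays 1 and 2 in that order. The mga2Δ signal lay above the WT signal on each array. The WT values were close to each other while those of mga2Δ were farther apart. The ratios on arrays 1 and 2 were 0.81 and 1.22 and averaged 1.02 ± 0.29 (SD of 2 arrays, adjusted p by limma = 0.00136). The 95% interval ran from 0.73 to 1.30, which is a 1.66- to 2.46-fold higher level. With median centring the ratio was as large but did not pass (1.01, adjusted p = 0.0675). Spots of the probe agreed closely within an array. On array 1 the 3 spots gave ratios from 0.78 to 0.87, and on array 2 from 1.21 to 1.23. The spread between the arrays was thus several times that among spots. The gap between the arrays, 0.41, was exceeded by 7.35% of tested genes, and the median gap was 0.14. The dye swap ran together with the replicates, so a dye effect on this probe and a difference between the replicate pairs cannot be told apart. The mean of the 2 arrays taken as Cy5 over Cy3 was −0.20 for erg32. Of all tested genes, 212 had a higher mean ratio (4.27%).

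The erg31 gene (SPAC1687.16c), which encodes the other desaturase of the pair, ran the opposite way. Its log2 signal was 9.84 and 9.88 in WT and 9.50 and 9.48 in mga2Δ. Both strains gave nearly the same value on the 2 arrays. The ratios were −0.34 (array 1) and −0.40 (array 2) and averaged −0.37 ± 0.04 (SD of 2 arrays; adjusted p by limma = 0.0238), with a 95% interval from −0.58 to −0.16. The mga2Δ level was 0.774 of the WT level. This places erg31 among the lower genes but not at the edge, since 393 tested genes (7.92%) had a lower mean ratio. The erg31 ratio did not pass when ratios were centred on spike-in RNAs (−0.17, adjusted p = 0.164), when arrays were centred on their median without loess (−0.33, adjusted p = 0.262) or when the prior degrees of freedom were halved (adjusted p = 0.0684).

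**Figure D1:**
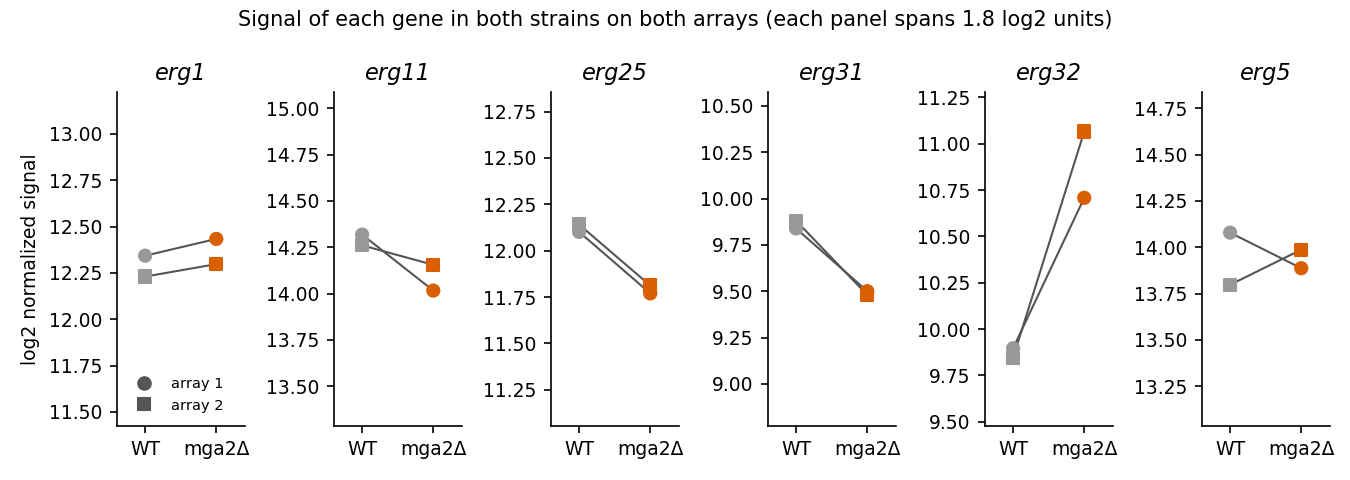
Log2 normalized signal of the 6 genes in WT (grey) and mga2Δ (orange), with a line joining the strains on array 1 (circles) and on array 2 (squares); each panel spans the same number of log2 units around its own centre. The erg32 lines climb on both arrays, those of erg25 and erg31 fall nearly in parallel, and those of erg5 cross.

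The difference between the pair was measured within each array, where both probes see the same labelled RNA. The erg32 ratio exceeded the erg31 ratio by 1.15 on array 1 and by 1.62 on array 2, a mean of 1.38 ± 0.33 (SD, n = 2 arrays) or 2.61-fold. An exact sign permutation test over 2 arrays cannot give a p below 0.5, so this difference has no test of its own. It did not depend on the centre of the ratios, because a shift of all genes cancels in it, and it lay between 1.35 and 1.53 under the alternative ways of processing the arrays. The raw spot signals show the same contrast. On array 1, erg32 averaged 2889 in mga2Δ (Cy5) and 644 in WT (Cy3), and erg31 averaged 1242.5 and 618. On array 2, with the dyes exchanged, erg32 averaged 1371 in mga2Δ (Cy3) and 1130 in WT (Cy5), and erg31 averaged 448 and 1129. On array 2 the WT signal was in the brighter Cy5 channel, and erg32 was nevertheless brighter in mga2Δ. Whether each probe sees only its own gene of the pair was not checked here, since probe sequences were not used.

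The erg25 gene (SPAC630.08c) fell with close agreement between the arrays. Erg25 starts the removal of the methyl groups at the ring position that Erg26 and Erg27 then work on. Log2 signals of this probe were 12.10 and 12.14 in WT and 11.77 and 11.81 in mga2Δ. The ratio was −0.33 on each array, with a mean of −0.33 ± 0.002 (SD, n = 2 arrays, limma adjusted p = 0.0330) and a 95% interval from −0.54 to −0.12. The mga2Δ level was 0.795 of the WT level. The gap between the arrays was smaller than in 98.8% of tested genes, and with 2 arrays so small an SD says little about the true spread. The interval therefore rests mainly on the spread of all genes. Like erg31, erg25 did not pass with spike-in centring (−0.13, adjusted p = 0.263), with median centring (−0.40, adjusted p = 0.238) or with halved prior degrees of freedom (adjusted p = 0.0787).

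The cytochrome P450 gene erg11 (SPAC13A11.02c) encodes the sterol demethylase that azole antifungals inhibit. Log2 signals of the erg11 probe were 14.32 and 14.26 in WT and 14.02 and 14.16 in mga2Δ. The mga2Δ signal lay below the WT signal on each array, by more on array 1. The ratios were −0.30 (array 1) and −0.11 (array 2) and averaged −0.20 ± 0.14 (SD of 2 arrays; adjusted p by limma = 0.162), with a 95% interval from −0.43 to 0.03. The interval includes no difference and also a level of 0.740 of WT. With the authors' deposited ratios the erg11 value was −0.37 and passed the test (adjusted p = 0.0261). With median centring it was −0.60 and did not pass (adjusted p = 0.225), with −0.30 on array 1 and −0.90 on array 2.

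The other P450 gene, erg5 (SPAC19A8.04), encodes the enzyme that desaturates the sterol side chain. The log2 signal of erg5 was 14.08 and 13.80 in WT and 13.89 and 13.99 in mga2Δ, so the strains overlapped. The ratios were −0.19 (array 1) and 0.19 (array 2) and averaged 0.00 ± 0.27 (SD of 2 arrays; adjusted p by limma = 0.996). The 95% interval, from −0.28 to 0.27, allows a level between 0.825 and 1.21 of WT. The gap between the arrays was 0.38, about as wide as for erg32 and exceeded by 8.96% of tested genes. Taken as Cy5 over Cy3 the mean was −0.19, larger in size than the mean of mga2Δ over WT. As for erg32, a dye effect and a difference between the replicate pairs cannot be told apart. The mean ratio of mga2Δ over WT was 0.20 with spike-in centring and −0.34 with median centring, and passed the test in neither. The difference between erg32 and erg5 was nearly the same on both arrays, at 1.00 and 1.03. This comparison was not planned, and the differences of erg32 from the other members varied more, with SDs from 0.15 to 0.33.

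The squalene epoxidase gene erg1 (SPBC713.12) encodes the target of the antifungal terbinafine and the first of the oxygen-using enzymes in the pathway. For erg1 the log2 signal was 12.34 and 12.23 in WT and 12.43 and 12.30 in mga2Δ. The strains overlapped across the arrays, while mga2Δ was slightly above WT within each array. The ratios were 0.09 (array 1) and 0.07 (array 2) and averaged 0.08 ± 0.02 (SD of 2 arrays; adjusted p by limma = 0.541), with a 95% interval from −0.13 to 0.29. One of its 3 spots on array 1 was an outlier and was left out. The interval allows a level between 0.912 and 1.22 of WT. The ratio was −0.03 with median centring, and with spike-in centring it was 0.28 and passed the test (adjusted p = 0.0433). Relative to erg31, erg1 was higher by 0.43 and 0.47 on the 2 arrays, a comparison that was not planned.

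**Figure D2:**
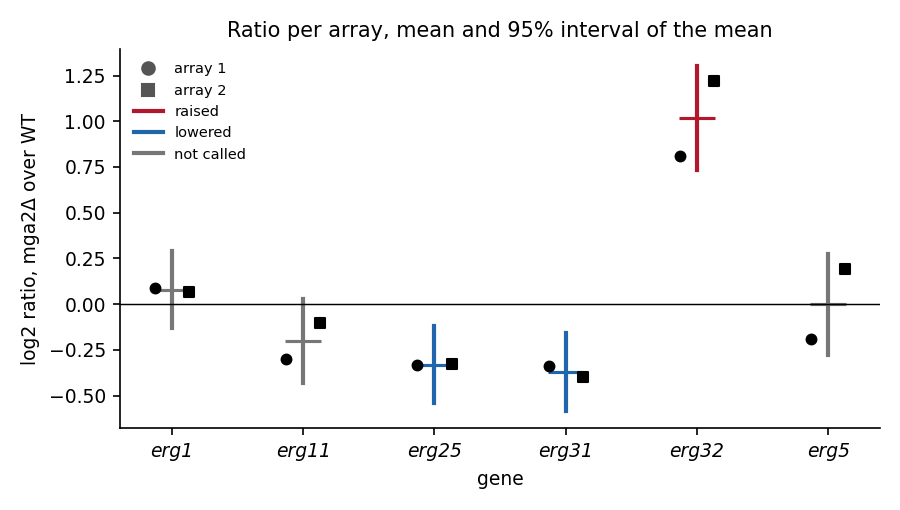
Log2 ratio of mga2Δ over WT for each gene on array 1 (circles) and array 2 (squares), with the mean (horizontal dash) and its 95% interval from limma (vertical line), coloured by call. The interval of erg32 lies above 0 (0.73 to 1.30), those of erg25 and erg31 lie below 0, and those of erg1, erg11 and erg5 include 0.

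Set among all tested genes, the 6 spanned from the lower tail to the upper tail. Their median ratio was −0.10, where that of all tested genes was 0.00. The members' median stayed negative under 10 of 11 alternatives with a test, and was 0.10 with spike-in centring, which shifts every gene upward by 0.20. Alternatives that changed only the filter or the test left the median at −0.10 by construction. For each gene the tested gene nearest in its pair of ratios was found by Euclidean distance over the 2 arrays. These were SPCC794.03 for erg32 (0.79 and 1.22, adjusted p = 0.00164), prp43, an RNA helicase, for erg31 (−0.34 and −0.40), and SPBC16C6.01c for erg25 (−0.33 and −0.33). For erg11, erg5 and erg1 they were rpm2, hom6, a homoserine dehydrogenase, and sac12, none of which passed the test. With 2 arrays this likeness is unspecific. Within a distance of 0.1 lay 10 genes for erg32, 142 for erg31, 186 for erg25, 190 for erg11, 65 for erg5 and 375 for erg1. Of the 11 protein-coding genes next to the 6 on the chromosomes that were tested, 2 were raised and none was lowered. Over all tested genes 18.4% were raised and 10.9% lowered. The ratios of the neighbours ran from −0.26 to 0.87. The raised ones lay next to erg5 (0.87) and erg25 (0.37), and neither neighbour of erg32 passed. Genome coordinates are not given because the files name no genome build.

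**Figure D3:**
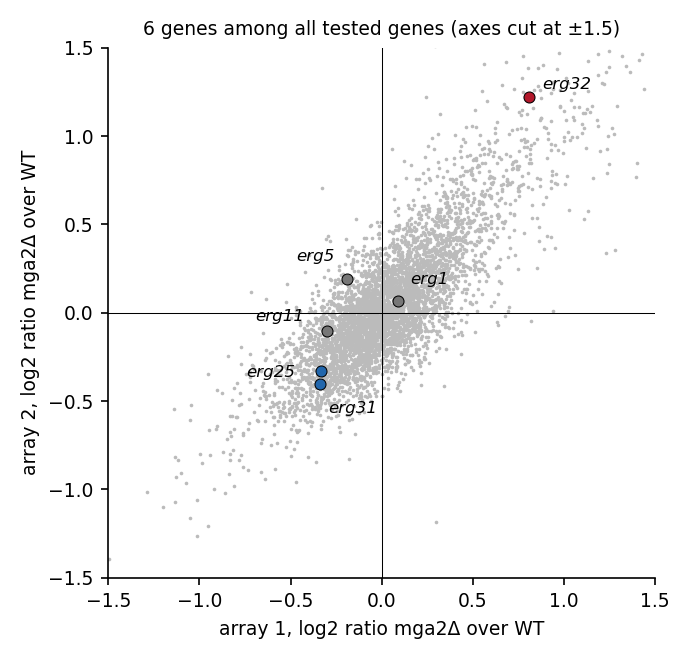
Log2 ratio of mga2Δ over WT on array 1 (x axis) and array 2 (y axis) for all tested genes (grey points; axes stop at a fixed limit) and the 6 genes (red raised, blue lowered, grey not called). The erg32 point lies at the upper right of the cloud, outside its dense middle, erg25 and erg31 lie beside each other at its lower left, and erg5 has opposite signs on the 2 arrays.

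The oxygen-using sterol enzymes need electron donors and helper proteins, and 5 of 6 listed partner genes were matched by name to a probe and tested. The unmatched one was cyb501, which does not show that the array lacks it. Of the 5 tested partners 1 was raised, 1 lowered and 3 did not pass, with a median of −0.11. For this and the following lists, the shares over all tested genes to read the counts against are 18.4% raised and 10.9% lowered, and no list was tested against them. The lowered one was cyb502, a cytochrome b5, the haem protein that in budding yeast passes electrons to sterol desaturation and demethylation. Its ratio was −0.54 on array 1 and −0.51 on array 2 (averaging −0.53 ± 0.02, SD of 2 arrays; adjusted p by limma = 0.00631). It passed in 10 of 11 alternatives, the exception being median centring (−0.55, adjusted p = 0.147). The raised one was dap1, a haem-binding regulator of the P450 enzymes Erg11 and Erg5 in fission yeast, with 0.29 and 0.31 (mean 0.30 ± 0.02, adjusted p = 0.0433). The dap1 ratio passed in 7 of 11 alternatives and failed with processed signals, median centring, the deposited ratios and halved prior degrees of freedom. The P450 reductase gene ccr1 had ratios of −0.11 and 0.08 (mean −0.02 ± 0.13, adjusted p = 0.907). The cytochrome b5 reductase gene cbr1 had −0.24 and 0.02 (mean −0.11 ± 0.18, adjusted p = 0.444). The scaffold gene erg28, whose product holds the demethylation enzymes together in budding yeast, had −0.39 and −0.13 (mean −0.26 ± 0.18, adjusted p = 0.0975). The erg28 ratio passed as lowered in 3 of 11 alternatives, with processed signals (adjusted p = 0.0496), the deposited ratios (adjusted p = 0.0453) and trend and robust settings (adjusted p = 0.0184).

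The sterol steps that need no oxygen gave a different mix of calls. Of 8 genes 2 were raised, none was lowered and 6 did not pass, with a median of 0.10. Both raised genes work beside members in the middle of the pathway. The sterol dehydrogenase/decarboxylase gene erg26, which acts on the product of Erg25, had 0.34 and 0.53 (averaging 0.43 ± 0.14, SD of 2 arrays; adjusted p by limma = 0.0176). The reductase gene erg24, which acts on the product of Erg11, had 0.44 and 0.21 (mean 0.33 ± 0.16, adjusted p = 0.0478). The third enzyme of the C-4 demethylation, erg27, had a mean of −0.18 ± 0.05 and did not pass (adjusted p = 0.169). The erg27 ratio passed as lowered with the deposited ratios (−0.72, adjusted p = 0.00277) and with processed signals (−0.40, adjusted p = 0.0271), and stood at 0.01 with spike-in centring. The successive demethylation genes erg25, erg26 and erg27 thus had mean ratios of −0.33, 0.43 and −0.18, and of −0.43, 0.30 and −0.72 with the deposited ratios, where erg27 was the lowest of them. Neither raised call held with median centring, the deposited ratios or halved prior degrees of freedom, and that of erg24 also did not hold with processed signals or a normexp offset of 16. The list median was −0.01 with median centring. A difference between the oxygen-using and the other steps was not tested.

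Upstream of squalene, 2 of 9 mevalonate-step genes were lowered, 1 was raised and 6 did not pass, with a median of −0.19. The lowered ones were hmg1, HMG-CoA reductase, the main control point of the pathway (−0.99 and −0.85, averaging −0.92 ± 0.10, SD of 2 arrays; adjusted p by limma = 0.000721), and idi1, isopentenyl diphosphate isomerase (−0.23 and −0.65, mean −0.44 ± 0.29, adjusted p = 0.0347). The raised one was erg10, acetoacetyl-CoA thiolase, the entry step (0.41 and 0.33, mean 0.37 ± 0.05, adjusted p = 0.0237). Among these genes hmg1 kept its call in 10 of 11 alternatives, erg10 and idi1 in 8 each. The erg10 ratio was −0.09 with median centring. The hmg1 fall was larger than that of any of the 6 oxygen-using enzymes on both arrays. Of the sterol esterification genes, which store surplus sterol, are2 was raised (0.40 and 0.87, mean 0.64 ± 0.34, adjusted p = 0.0127) and are1 did not pass (mean 0.32 ± 0.25, adjusted p = 0.0785). The are2 call was lost with median centring (adjusted p = 0.160) and halved prior degrees of freedom (adjusted p = 0.0709). The are1 ratio passed as raised with scale normalization (adjusted p = 0.0328), spike-in centring (0.52, adjusted p = 0.0118) and trend and robust settings (adjusted p = 0.00857).

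**Figure D4:**
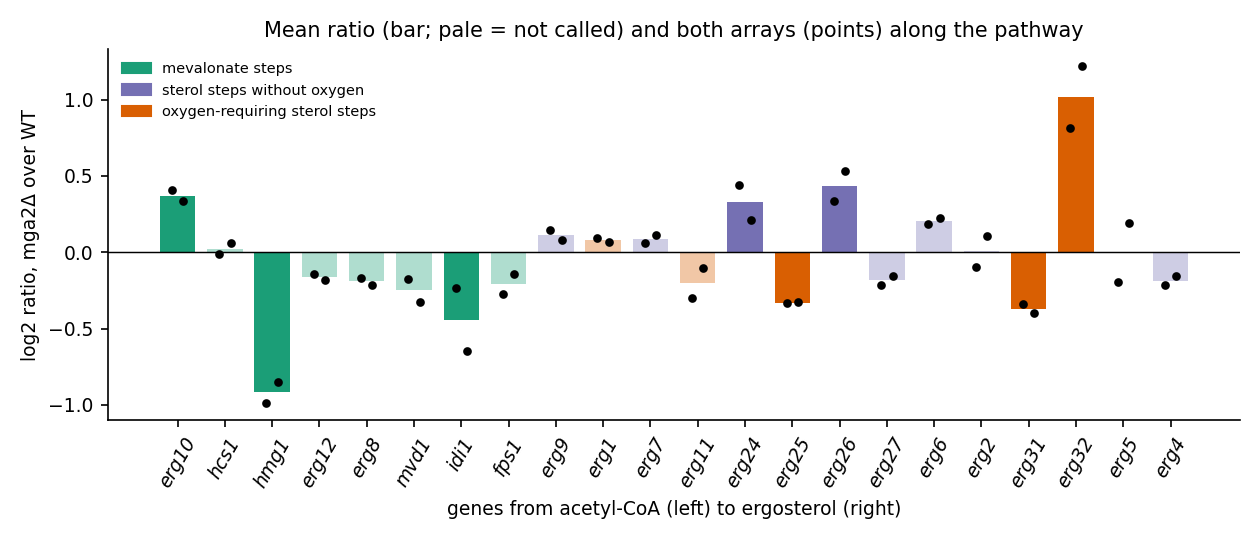
Mean log2 ratio of mga2Δ over WT (bars, pale where not called) and the value on each array (points) for genes in pathway order from acetyl-CoA to ergosterol, coloured by mevalonate step, sterol step without oxygen and oxygen-requiring step. The tallest bar is erg32 (1.02) and the deepest is hmg1 (−0.92), and the bar of erg5 is at 0.00.

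Enzymes of other pathways that also consume oxygen were counted beside the 6. Of 8 listed genes 5 were lowered, 1 was raised and 2 did not pass, with a median of −0.36, where 10.9% of all tested genes were lowered and 18.4% raised. Neither the count nor its difference from the 6 sterol enzymes was tested. The lowered genes were the fatty acid desaturase gene ole1 (−1.56 and −1.64, averaging −1.60 ± 0.05, SD of 2 arrays; adjusted p by limma = 5.92e-05), coq6, a monooxygenase of ubiquinone synthesis (mean −0.51 ± 0.02, adjusted p = 0.00722), scs7, a sphingolipid hydroxylase (mean −0.44 ± 0.07, adjusted p = 0.0138), ofd1, a dioxygenase that controls the Sre1 factor (mean −0.40 ± 0.17, adjusted p = 0.0262), and hem14, protoporphyrinogen oxidase (mean −0.31 ± 0.07, adjusted p = 0.0446). The raised gene was sur2, another sphingolipid hydroxylase (mean 0.53 ± 0.28, adjusted p = 0.0176). Falls of the size seen in erg25 and erg31 were thus also measured in ofd1 and hem14. The calls of scs7, ofd1 and hem14, like those of erg25 and erg31, did not hold with spike-in centring, and with median centring none of the calls of these 8 genes held. With halved prior degrees of freedom, the calls of scs7, ofd1, hem14 and sur2 were lost.

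The SREBP pathway regulates sterol genes in fission yeast through Sre1, its partner Scp1 and the Dsc ubiquitin ligase complex, which is needed for the cleavage of Sre1. Of 10 listed genes 9 were tested, and 3 were raised, 3 lowered and 3 did not pass, with a median of −0.10. The untested gene was sre1 itself, whose spots were too dim in both strains. The design text of the series, unlike the sample labels, gives both strains a deletion of sre1. Whether Sre1 was present is therefore not settled here. Raised were the Dsc subunit genes dsc3 (mean 0.50 ± 0.04), dsc1 (0.48 ± 0.11) and dsc5 (0.48 ± 0.15), each as SD over 2 arrays with limma adjusted p-values of 0.00785, 0.0108 and 0.0131. Lowered were scp1 (−0.50 ± 0.29, adjusted p = 0.0217), nro1, an inhibitor of Ofd1 (−0.45 ± 0.02, adjusted p = 0.0117), and ofd1, counted above. Their calls did not hold with median centring, and those of the 3 lowered genes did not with spike-in centring. With halved prior degrees of freedom the calls of dsc1 (adjusted p = 0.0518), dsc5 (adjusted p = 0.0593), scp1 (adjusted p = 0.0865) and ofd1 (adjusted p = 0.0819) were lost, which left 1 raised and 1 lowered. The factor gene sre2, a relative of sre1, did not pass (mean −0.18 ± 0.09, adjusted p = 0.199). With the deposited ratios sre2 was −0.35 and passed as lowered (adjusted p = 0.0328). With spike-in centring the medians of the SREBP, partner and mevalonate lists were 0.10, 0.09 and 0.01, above 0 like that of the 6 enzymes. The median of all tested genes was 0.20 under that setting, so each of these medians lay below it.

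**Figure D5:**
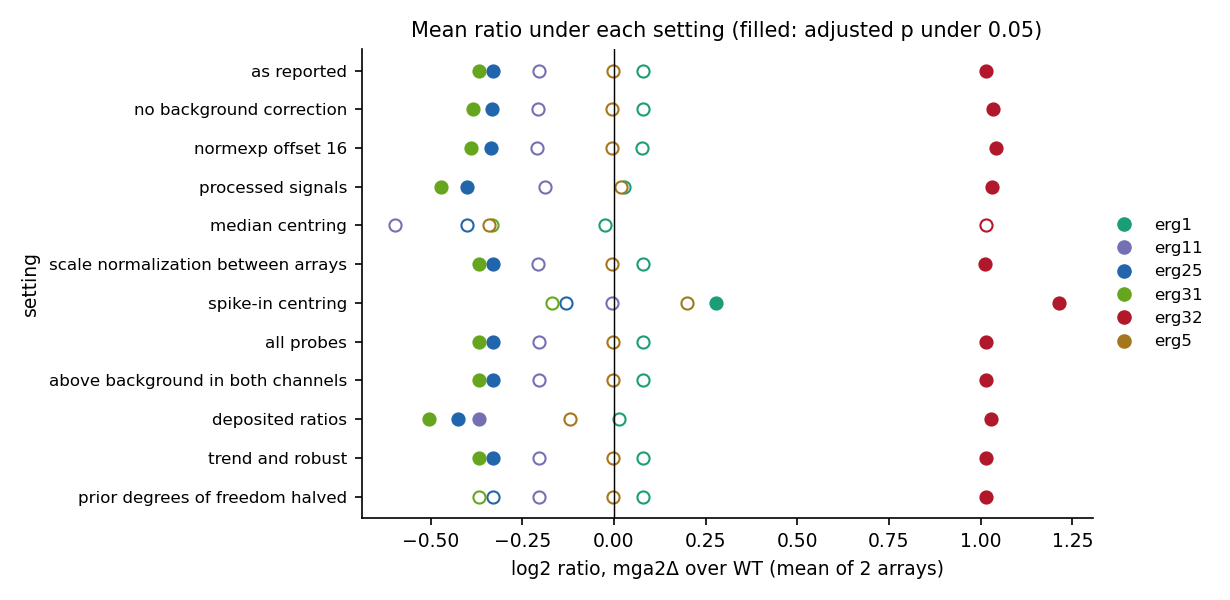
Mean log2 ratio of mga2Δ over WT of the 6 genes (colours) as reported and under 11 other settings, filled where the limma adjusted p was under 0.05. The erg32 points stay between 1.01 and 1.21, those of erg25 and erg31 stay below 0, and those of erg1 and erg5 lie on both sides of 0.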

How the data were processed

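Per the labels' protocols, total RNA with added spike-in RNAs was amplified from oligo-dT primers and dye-labelled. Spot intensity values and log10 ratios of Cy5 over Cy3 were made with Agilent Feature Extraction 10.5.1.1, per the file headers. The submitters' processing notes also name Partek, for an unstated step. The authors' deposited log2 ratios run as mga2Δ over WT on both arrays (correlation with the scanner ratios 0.981 and 0.982) and are centred on each array's mean (medians −0.078 and −0.115); how they were normalized is not stated in the sources used.

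Median spot and background intensities were corrected with normexp (offset 50) and loess in limma 3.58.1 (R 4.3.3). Control and outlier spots had weight 0 in the loess fit. Outlier spots (3.57% and 3.36%) were left out and the 3 spots of a probe averaged. Channel signals were further normalized with Aquantile. A probe was tested if at least 2 spots were well above background in either channel on each array, which kept 4964 of 5057. Ratios were tested against 0 with lmFit and eBayes, two-sided, adjusted over all tested genes; a dye term would leave no residual degree of freedom. Gene symbols and neighbouring genes, but no coordinates, were taken from RefSeq (assembly ASM294v3), where 5021 probes were found by locus tag and 3 by alias, leaving 33 unmatched. The partner cyb501 was not matched. Spike-in centring used the part of the spike-in ratios that turned with the strains (a shift of −0.20), since their larger part followed the dyes: 9 of 10 spike-in probes had the same sign of Cy5 over Cy3 on both arrays. The steps were tested on simulated spots.

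Genes named are the 6 members, mga2 and sre1, all partner genes, called members of the other lists, and each member's nearest gene. Others (erg27, are1 and sre2) were named after their values were seen. Members and lists were chosen with earlier results of these data known. The planned search for promoter motifs was not made, because promoter sequences were not used here. Both arrays came from 1 slide and scan run, so no batch could be tested. Figures were drawn with Python 3.11.15 and matplotlib 3.10.9.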

Additional observations from a re-analysis of the deposited data

How the results depend on the processing

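Each result was recomputed under 11 other settings with a test: normexp with offset 16 or no background correction, the scanner's processed signals, centring on array medians or on spike-in RNAs, scaling between arrays, no filter or a filter needing both channels, the deposited ratios, eBayes with trend and robust settings, and prior degrees of freedom lowered to 2.81. Of the 66 values of the 6 enzymes so obtained, 54 kept their direction and their side of the threshold. That count includes settings in which the direction could not change. The ratios are the same by construction with no filter, the filter needing both channels, trend and robust settings, and halved prior degrees of freedom. The erg32 call was lost with median centring (1.01, adjusted p = 0.0675). The erg25 and erg31 calls were lost with median centring (−0.40 and −0.33), spike-in centring (−0.131 and −0.170) and halved prior degrees of freedom (−0.330 and −0.369). Calls were gained by erg1 with spike-in centring (0.278) and by erg11 with the deposited ratios (−0.368). Signs turned for erg1 with median centring (−0.0256) and for erg5 with processed signals (0.0185) and spike-in centring (0.198). Spike-in centring adds 0.199 to every gene, which by itself makes the changes seen under that setting. The losses with halved prior degrees of freedom come from the test alone, since the ratios are the same. The cause of the other changes was not tested.

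With 1 array alone, which gives a value and no test, erg5 ranged from −0.192 to 0.190 and so changed sign, erg1 from 0.067 to 0.090, erg11 from −0.302 to −0.105, erg25 from −0.332 to −0.329, erg31 from −0.40 to −0.34 and erg32 from 0.811 to 1.22. The difference of erg32 and erg31 ranged from 1.15 to 1.62. Over all genes, 915 were raised and 541 lowered. With processed signals 812 were lowered, with median centring 146 were raised and 26 lowered, with spike-in centring 1921 and 188, with the deposited ratios 1138 were lowered, with trend and robust settings 921 were lowered, and with halved prior degrees of freedom 493 were raised and 176 lowered. Rises made up 62.8% of calls, and 52.2% with processed signals, 84.9% with median centring, 91.1% with spike-in centring, 39.7% with the deposited ratios and 73.7% with halved prior degrees of freedom.

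Counts in the 6 other lists are small and moved by over 1.5 times in 41 of 132 cases. Each is read beside the counts over all tested genes under its setting. Of 4964 genes, 1921 were raised and 188 lowered with spike-in centring, and 146 and 26 with median centring. With the deposited ratios they were 750 and 1138, with processed signals 886 and 812, and with halved prior degrees of freedom 493 and 176. With offset 16 they were 951 and 583, and without background correction 994 and 626. Scale normalization gave 1054 and 690, and trend and robust settings 1168 and 921. With median centring no member of these lists was called, so each count was 0. With halved prior degrees of freedom, counts fell to 0 raised for mevalonate, oxygen-free sterol, partner, other oxygen-using and esterification genes, to 1 lowered mevalonate gene, 2 lowered oxygen-using genes and 1 raised and 1 lowered SREBP gene. With spike-in centring 5 oxygen-free sterol genes were raised, 2 oxygen-using genes raised and 2 lowered, 2 esterification genes raised, 1 mevalonate gene lowered and 0 SREBP genes lowered. With the deposited ratios the oxygen-free sterol genes had 0 raised and 1 lowered (erg27), the partners 0 raised and 2 lowered, and the mevalonate genes 0 raised. With processed signals the oxygen-free sterol genes had 1 raised and 1 lowered and the partners 0 and 2. One oxygen-free sterol gene was raised with offset 16. Raised oxygen-using genes numbered 2 without background correction, with scale normalization and with trend and robust settings, and the last 2 of these settings raised 2 esterification genes. With trend and robust settings 2 partners were lowered.

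Each array holds one sample of each strain, so every ratio is a paired value and the test of the ratios against 0 is the paired analysis; no unpaired fit was made. The search for promoter motifs was not run.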
